A study of Mus musculus with 18 samples.

Results

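Tumors that received both an intratumoral dendritic cell therapy (HER2 DC1) and a semaphorin 4D blocking antibody were compared with untreated control tumors. The samples were chosen by their titles. They were the 3 samples labelled as treated tumors of the combination arm and the 2 labelled as treated tumors of the untreated control arm, 5 of 18 in the series. All 768 genes of a NanoString nCounter metabolic pathways panel were used, without its 6 positive and 8 negative control probes. The other samples were single-agent arms and tumors labelled as untreated. TUBO cells, a mouse mammary carcinoma line that carries the rat HER2/neu oncogene, were grown in culture and injected into female BALB/c mice. Treatment lasted 3 weeks, and tumors were dissected at a single time point and flash frozen for total RNA. The titles say only that a tumor was treated; that dendritic cells were injected into it follows from the treatment description, and the labels leave unsaid which tumor of a control mouse takes that name. No label says that each sample is its own mouse, so p-values reflect only the variation between these samples, which may be technical. TUBO is a single cell line, so the tumors stand for 1 tumor model.

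Dendritic cells take up tumor antigen, display it on MHC molecules and activate T cells, which recognise it through the T cell receptor and need costimulation to respond. Semaphorin 4D is a cell surface protein of lymphocytes and tumor cells that binds plexin receptors, and its blockade has been used to let immune cells enter tumors. Activated T cells and macrophages change their use of glucose, amino acids and lipids, which is what a metabolic panel with immune genes can record.

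Panel counts per sample, with the authors' scaling removed, were 624529 and 738233 in control and 844996, 904880 and 909415 in combination tumors. Control replicate 1 had been deposited as whole counts and the other 4 samples as counts multiplied by a factor from 0.852 to 1.13, and whether those whole numbers are raw or rounded scaled counts was not settled. A negative-control limit, the mean plus 2 SD of the 8 negative probes of a sample, was exceeded by 537 and 569 genes in control and by 597, 609 and 593 in the combination. Transferrin (Trf), an iron carrier, took 17.1% and 12.8% of counts in the controls. It was also the leading gene in combination replicates 1 and 3, at 10.05% and 9.70%, whereas in replicate 2 the largest share, 4.82%, was that of H2-Aa, of MHC class II. The correlation of log2 values over the panel was 0.990 between the controls and 0.928, 0.974 and 0.965 between combination replicates 1 and 2, 1 and 3, and 2 and 3, so replicate 2 stood somewhat apart. Of mammary tumor markers the panel allowed few, and the epithelial list held Trf, Folr1, Car12 and Egfr. In whole tumor RNA, more cells of a type and more RNA per cell cannot be told apart.

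Of 768 genes, 298 (38.8%) differed at an adjusted p under 0.05 in limma, 272 (35.4%) higher and 26 (3.39%) lower in the combination, and 366 (47.7%) did so at an unadjusted p under 0.05. Immune, lysosomal, matrix and signaling genes made up much of the rise, and replication and repair genes much of the fall. The combination and control samples did not overlap for 427 genes (55.6%) with the combination above and for 82 (10.7%) with it below. The median gene was 0.54 (log2) higher in the combination on the deposited scale, as the plot of changes of every panel gene shows, so each change should be read against that shift. With every sample centred on its panel median, which moved all changes by 0.71, 104 genes (13.5%) were higher and 173 (22.5%) lower. Centring on 20 housekeeping genes, a shift of 0.26, left 193 (25.1%) higher and 72 (9.38%) lower. With whole-number and scaled columns as blocks, 287 rose and 20 fell. With only the 5 samples in the fit, 155 genes (20.2%) rose and none fell (0.0%), against 272 and 26 in the fit over all 18 samples. Of the 272 genes that rose, 68 were at or below the limit in both controls, so that only a lower bound on their fold could be given for 53 and no fold for the others. Because 1 was added to each count before the logarithm, folds of genes with few counts are too small.

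**Figure D1:**
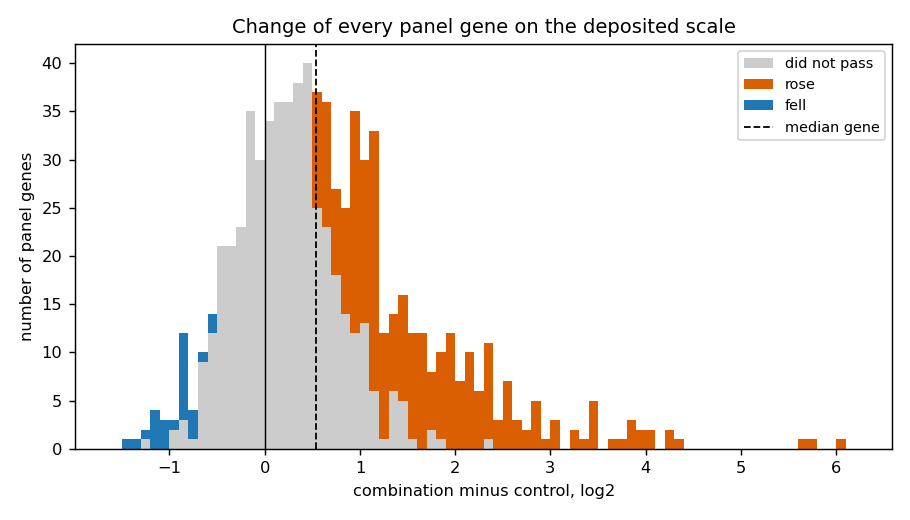
Histogram of the log2 difference between combination and control (x axis) for 768 panel genes (y axis, number of genes), with genes that rose in orange, fell in blue and did not pass in grey. The dashed line marks the median gene at 0.54, right of the solid line at 0, and the 272 rises reach further from 0 than the 26 falls.

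A set of 66 genes (8.59%) rose in all 3 scalings, in the fit of 5 samples and with any 1 of the 5 samples left out. No gene fell in all of these settings. Without one or the other control, 122 (15.9%) or 131 (17.1%) genes rose in place of 272, and without combination replicate 2, 183 (23.8%) rose. A gene is called stable here where its call held with any 1 sample left out, and for other genes the sample that ended the call is named. In the plot of values by sample, the combination points of the rising genes shown lie above both control points. The plot holds 29 selected genes, so it does not stand for all 272 and adds no support to the calls.

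**Figure D2:**
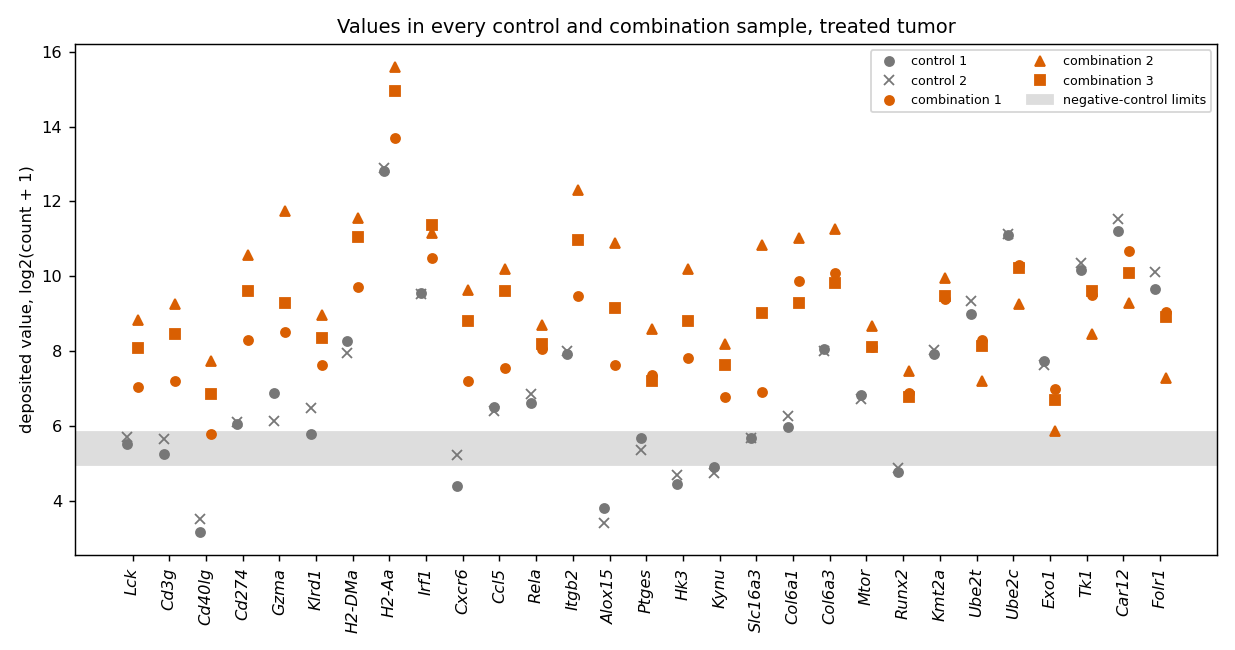
Deposited values, log2(count + 1), of 29 genes (x axis) in the 2 control samples (grey) and the 3 combination samples (orange, 1 marker shape for each replicate), with the range of the negative-control limits as a grey band. The genes are a selection. For 23 genes on the left every combination sample lies above both controls, and for 6 on the right every one lies below. Replicate 2 (triangles) is the farthest from control for most.

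Genes of the T cell receptor complex and its first signaling steps rose together. Of 16 measured, 12 rose and 0 fell, with median change 2.37 (log2) against 0.54 over the panel; 11 passed as higher after median centring and 10 with only the 5 samples in the fit. Lck, the kinase that phosphorylates the receptor complex, read 5.52 and 5.71 in control and 7.04, 8.83 and 8.09 in the combination. It rose 5.16-fold (log2 change 2.37, SE 0.43, adjusted p = 0.00212), or 1.66 after median centring. The CD3 subunit Cd3g read 5.25 and 5.66 in control and 7.19, 9.25 and 8.45 in the combination, a 7.19-fold rise (log2 change 2.85, SE 0.57, adjusted p = 0.00327; 2.14 centred). In both genes combination replicate 1 was the lowest and replicate 2 the highest of the treated samples, and no treated sample overlapped the controls.

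Cd40lg, the ligand by which helper T cells license dendritic cells and B cells, read 3.17 and 3.52 in control and 5.77, 7.74 and 6.84 in the combination. It thus went from below the limit to above it in every treated sample, a rise of at least 3.03-fold (log2 change 3.44, SE 0.63, adjusted p = 0.00218; 2.73 centred). The calls of Lck, Cd3g and Cd40lg were stable to leaving out any 1 sample. Of 9 genes of costimulation and the interleukin 2 axis, 5 rose and 0 fell. Among them Stat5a, a transcription factor activated by interleukin 2, read 7.25 and 7.36 in control and 8.30, 8.74 and 8.31 in the combination and rose 2.21-fold (log2 change 1.14, SE 0.20, adjusted p = 0.00194; 0.44 centred), with little spread between samples.

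Cd4, the coreceptor of helper T cells, read 3.46 and 3.93 in control and 6.40, 8.74 and 7.48 in the combination. Cd8a, the coreceptor of cytotoxic T cells, stayed at or below the limit in all 5 samples, at 3.32 and 3.74 in control and 4.10, 4.69 and 4.25 in the combination (log2 change 0.82, SE 0.56, adjusted p = 0.267), so this probe gave no fold. Another CD3 subunit, Cd3d, read 7.45 and 7.13 in control and 7.62, 8.40 and 7.82 in the combination and did not pass (log2 change 0.65, SE 0.27, adjusted p = 0.0688), though it did without combination replicate 1 (0.82, adjusted p = 0.0337), and its change was -0.05 after centring.

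Genes of cytotoxic lymphocytes were also higher. Of 15 measured, 11 rose and 0 fell, with median change 1.54; 6 passed as higher after median centring and 5 with only the 5 samples in the fit. The granule protease Gzma read 6.87 and 6.12 in control and 8.50, 11.75 and 9.28 in the combination, a 10.2-fold rise (log2 change 3.35, SE 0.83, adjusted p = 0.00779; 2.64 centred). Gzmb, another granule protease, and the pore-forming perforin gene Prf1 rose at least 2.77-fold and at least 2.86-fold (adjusted p = 0.0105 and 0.00725). Of 6 natural killer genes, all of them already counted in the cytotoxic list, 5 rose, against 35.4% of the panel. The receptor subunit Klrd1 read 5.78 and 6.47 in control and 7.63, 8.97 and 8.34 in the combination and rose 4.57-fold (log2 change 2.19, SE 0.53, adjusted p = 0.00725). Ncr1, an activating receptor of natural killer cells, rose at least 2.30-fold from below the limit (adjusted p = 0.00473), and the interleukin 21 receptor Il21r 4.58-fold (adjusted p = 0.00490). No call was made for Gzma, Gzmb and Prf1 without control replicate 2 (adjusted p from 0.0666 to 0.0886), and for Klrd1 without control replicate 1 (adjusted p = 0.0779). Shifts of the fold by over 1.5 times gave log2 changes of 4.02 for Gzma without combination replicate 1, and of 2.39 for Gzma, 1.70 for Gzmb and 1.55 for Prf1 without combination replicate 2. Ncr1 did not pass after median centring, at 0.83. Gzma, Gzmb, Prf1 and Il21r did not pass with only the 5 samples in the fit (adjusted p from 0.0511 to 0.0820). The cytokine gene Ifng was at or below the limit in all 5 samples, at 4.09 and 3.84 in control and 4.10, 5.13 and 4.68 in the combination (log2 change 0.67, SE 0.63, adjusted p = 0.413; -0.04 centred).

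Of 9 inhibitory checkpoint genes, 7 rose and 0 fell, with median change 1.94; 5 passed as higher after median centring and 4 with only the 5 samples in the fit. The ligand of PD-1, Cd274, read 6.04 and 6.10 in control and 8.31, 10.58 and 9.61 in the combination (log2 change 3.43, SE 0.55, adjusted p = 0.00169; 2.72 centred), with each treated sample above both controls. Nt5e, the surface enzyme CD73 that makes adenosine, read 7.59 and 7.47 in control and 8.64, 8.33 and 9.08 in the combination and rose 2.22-fold (log2 change 1.15, SE 0.29, adjusted p = 0.00852), while its centred change of 0.44 did not pass. Here replicate 2 was the lowest treated sample. The inhibitory receptor Tigit, above the limit in 2 of 3 treated samples and in neither control, rose at least 1.22-fold (adjusted p = 0.0233). Calls were not kept by Nt5e without control replicate 2 (adjusted p = 0.0640), and by Tigit without combination replicate 2 or 3 or one or the other control (adjusted p from 0.0570 to 0.141). Folds that moved by over 1.5 times corresponded to log2 changes of 4.02 for Cd274 without combination replicate 1. Tigit did not pass after median centring, at 1.23. Tigit did not pass with only the 5 samples in the fit (adjusted p = 0.0769).

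Antigen presentation genes rose in both MHC classes. Of 5 class II pathway genes, 4 rose and 0 fell, and 6 of 8 class I and immunoproteasome genes rose. These shares were 80% and 75%, against 35.4% of the panel. After median centring 2 of the class II and 3 of the class I genes passed as higher. With only the 5 samples in the fit, 3 and 5 did. H2-DMa, which helps load peptide onto class II molecules, read 8.27 and 7.95 in control and 9.72, 11.57 and 11.04 in the combination, a 6.36-fold rise (log2 change 2.67, SE 0.57, adjusted p = 0.00450; 1.96 centred). The class II alpha chain gene H2-Aa read 12.80 and 12.89 in control and 13.71, 15.59 and 14.94 in the combination and rose 3.73-fold (log2 change 1.90, SE 0.58, adjusted p = 0.0218; 1.19 centred). All treated samples were above the controls, and replicate 1 lay nearest to them. The summed counts of the class II genes made up 2.29% and 2.21% in control and 3.97%, 11.3% and 7.61% in the combination. Psmb10, an immunoproteasome subunit, read 8.95 and 8.62 in control and 9.76, 10.66 and 10.91 in the combination and rose 3.17-fold (log2 change 1.66, SE 0.40, adjusted p = 0.00725; 0.96 centred). The probe for the class I gene H2-K1 stayed at or below the limit in all 5 samples, so this probe gave no fold. It read 4.17 and 2.75 in control and 4.10, 4.82 and 4.32 in the combination. The class I gene H2-D1 read 13.50 and 12.87 in control and 14.38, 15.10 and 14.63 in the combination.

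All 4 interferon response genes measured rose, with median change 1.92. Irf1, an interferon-induced factor that drives MHC class I genes, read 9.56 and 9.53 in control and 10.49, 11.16 and 11.37 in the combination and rose 2.75-fold (log2 change 1.46, SE 0.36, adjusted p = 0.00762; 0.75 centred). Replicate 3, not replicate 2, was its highest sample. The kinase Jak2 rose 2.25-fold (adjusted p = 0.0139) and was 0.46 higher after centring, where it did not pass. H2-DMa was stable to leaving out any 1 sample. No call was made for H2-Aa without combination replicate 2 or 3 or one or the other control (adjusted p from 0.0553 to 0.110), for Psmb10 without control replicate 2 (adjusted p = 0.0635), for Irf1 without one or the other control (adjusted p from 0.0508 to 0.0544), and for Jak2 without combination replicate 2 or one or the other control (adjusted p from 0.0550 to 0.0972). H2-Aa, Psmb10 and Irf1 did not pass after median centring, at 1.19, 0.96 and 0.75. H2-Aa and Jak2 did not pass with only the 5 samples in the fit (adjusted p from 0.0511 to 0.0593).

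Upstream sequence is shown as an example for the class II genes H2-Eb1 and H2-Aa, which rose, and for Ube2c, a mitotic gene that fell. The 250 bases before the annotated start are from RefSeq (GRCm38.p6), 5′ to 3′ on the gene's strand, and capitals mark CCAAT on either strand, the box bound by the factor NF-Y.
H2-Eb1, chr17:34305617-34305866, plus strand: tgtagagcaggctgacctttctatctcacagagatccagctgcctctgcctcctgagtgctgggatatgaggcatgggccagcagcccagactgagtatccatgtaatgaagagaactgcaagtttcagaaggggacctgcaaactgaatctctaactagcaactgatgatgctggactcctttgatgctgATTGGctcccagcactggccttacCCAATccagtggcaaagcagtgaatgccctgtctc
H2-Aa, chr17:34287824-34288073, minus strand: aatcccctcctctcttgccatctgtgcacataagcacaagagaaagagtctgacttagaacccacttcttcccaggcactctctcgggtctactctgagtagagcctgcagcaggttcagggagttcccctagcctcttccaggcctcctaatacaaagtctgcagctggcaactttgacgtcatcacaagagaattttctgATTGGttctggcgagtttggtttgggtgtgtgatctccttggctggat
Ube2c, chr2:164769679-164769928, plus strand: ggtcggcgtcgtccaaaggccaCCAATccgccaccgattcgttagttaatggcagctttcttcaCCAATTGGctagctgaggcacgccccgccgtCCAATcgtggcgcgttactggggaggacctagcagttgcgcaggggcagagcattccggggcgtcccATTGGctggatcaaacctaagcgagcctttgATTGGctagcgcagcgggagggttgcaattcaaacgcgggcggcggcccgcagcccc

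The upstream windows held 2 matches in H2-Eb1, 1 in H2-Aa and 6 in Ube2c. Over windows from 250 bases before to 50 after the start, CCAAT was present for 41.1% of 27025 genes and 45.4% of the 604 panel genes with a window. The share was 46.1% of 219 genes that rose and 52.9% of 17 that fell. The gamma interferon activation site TTCNNNGAA was found in 8.68% of the rising and 7.12% of the panel genes. The cell cycle element TTTGAA was found in 23.5% of the falling and 17.9% of the panel genes. All motifs were searched on both strands. Shares of the rising and falling genes were near those of the panel, and a match describes the letters only.

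Chemokine and NF-kB genes followed. Of 12 cytokine, chemokine and receptor genes, 8 rose and 0 fell, and of 13 genes of Toll-like receptors or NF-kB signaling 9 rose. These shares were 66.7% and 69.2%, against 35.4% of the panel. After median centring 7 genes of the first list but only 3 of the second passed as higher. The median centred change of the second list was 0.30. With only the 5 samples in the fit, 5 and 6 genes rose. Cxcr6, a chemokine receptor of effector T cells, read 4.39 and 5.22 in control and 7.19, 9.64 and 8.79 in the combination, a 13.3-fold rise (log2 change 3.74, SE 0.70, adjusted p = 0.00234; 3.03 centred). Ccl5, a chemokine that draws T cells and monocytes, read 6.49 and 6.39 in control and 7.56, 10.21 and 9.61 in the combination and rose 6.42-fold (log2 change 2.68, SE 0.64, adjusted p = 0.00723; 1.98 centred). Rela, the p65 subunit of NF-kB, read 6.60 and 6.85 in control and 8.05, 8.70 and 8.18 in the combination and rose 3.00-fold (log2 change 1.58, SE 0.30, adjusted p = 0.00258; 0.88 centred), with all treated samples more than 1 log2 unit above both controls. Lymphotoxin beta (Ltb), Birc3 and Traf1, which belong to tumor necrosis factor receptor signaling, rose 5.08-fold, 4.36-fold and 9.83-fold (adjusted p = 0.00761, 0.00643 and 0.00185). Tbk1, a kinase of innate sensing, rose 2.05-fold (adjusted p = 0.00343), or 0.32 centred, where it did not pass. The test was not passed by Ccl5 without control replicate 2 (adjusted p = 0.0505), and by Ltb without one or the other control (adjusted p from 0.05002 to 0.0534). Folds that moved by over 1.5 times corresponded to log2 changes of 4.41 for Cxcr6 and 3.47 for Ccl5 without combination replicate 1. Ccl5 did not pass with only the 5 samples in the fit (adjusted p = 0.0591).

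Eicosanoids are lipid mediators made from arachidonic acid, by lipoxygenases toward leukotrienes and lipoxins and by cyclooxygenases toward prostaglandins. Of 10 genes of their synthesis, 8 rose and 0 fell, with median change 1.94; 5 passed as higher after median centring and 4 with only the 5 samples in the fit. Alox15, the 12/15-lipoxygenase of macrophages and eosinophils, read 3.81 and 3.40 in control and 7.64, 10.88 and 9.16 in the combination, a rise of at least 16.5-fold (log2 change 5.63, SE 0.82, adjusted p = 0.000981; 4.92 centred). Alox5, which starts leukotriene synthesis, rose 4.98-fold (adjusted p = 0.0100). On the prostaglandin side, the prostaglandin E synthase Ptges read 5.67 and 5.36 in control and 7.37, 8.59 and 7.19 in the combination and rose 4.597-fold (log2 change 2.20, SE 0.37, adjusted p = 0.00194; 1.49 centred). The inducible cyclooxygenase Ptgs2 rose 3.67-fold (adjusted p = 0.0435; 1.17 centred, not passed), and the prostaglandin E2 receptor Ptger4 at least 2.67-fold from below the limit (adjusted p = 0.00434). Alox15 and Ptges were stable to leaving out any 1 sample. The call was lost for Alox5 and Ptger4 without control replicate 1 (adjusted p from 0.0645 to 0.0800), and for Ptgs2 without combination replicate 2 or 3 or one or the other control (adjusted p from 0.0652 to 0.283). The fold moved by over 1.5 times, to log2 changes of 6.42 for Alox15 and 3.08 for Alox5 without combination replicate 1, of 4.80 for Alox15 and 1.59 for Alox5 without combination replicate 2, of 1.86 for Ptger4 without control replicate 1, and of 3.79 for Ptger4 without control replicate 2. Alox5 and Ptgs2 did not pass with only the 5 samples in the fit (adjusted p from 0.0591 to 0.0940).

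Markers of several leukocyte types were higher at once. Of 8 macrophage and monocyte markers, 7 rose (87.5%, against 35.4% of the panel) and 0 fell. After median centring 6 passed as higher, but only 2 did with only the 5 samples in the fit. Their summed counts made up 0.193% and 0.201% in control and 0.354%, 1.58% and 0.788% in the combination. The genes detailed next are leukocyte genes of other lists. Itgb2, the beta chain of leukocyte integrins, read 7.91 and 8.01 in control and 9.47, 12.32 and 10.97 in the combination, a 7.78-fold rise (log2 change 2.96, SE 0.59, adjusted p = 0.00309; 2.25 centred). Cmklr1, the chemerin receptor of macrophages and dendritic cells, read 5.86 and 5.91 in control and 7.52, 9.31 and 8.53 in the combination and rose 5.95-fold (log2 change 2.57, SE 0.48, adjusted p = 0.00234; 1.87 centred). The Fc receptor-like gene Fcrlb, above the limit in 2 of 3 treated samples and in neither control, and the neutrophil growth factor receptor Csf3r rose at least 2.73-fold and 4.98-fold (adjusted p = 0.00298 and 0.00450). The calls of Itgb2, Cmklr1, Csf3r and Fcrlb were stable to leaving out any 1 sample. Folds that moved by over 1.5 times corresponded to log2 changes of 3.68 for Itgb2 and 4.53 for Fcrlb without combination replicate 1, and of 2.26 for Itgb2 and 2.67 for Fcrlb without combination replicate 2. Itgb2 and Fcrlb did not pass with only the 5 samples in the fit (adjusted p from 0.0511 to 0.0574).

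Markers of other immune cell types were measured as well. Of 8 B cell genes, 2 rose (25%, below the panel's 35.4%), and 1 passed as higher after median centring. Among the 2 was Btk, a kinase that myeloid cells also use, at 4.70 and 5.02 in control and 6.60, 9.07 and 7.92 in the combination (8.02-fold, log2 change 3.00, SE 0.55, adjusted p = 0.00218). Shifts of the fold by over 1.5 times gave log2 changes of 3.63 for Btk without combination replicate 1, and of 2.40 for Btk without combination replicate 2. Of 9 neutrophil and mast cell genes, 2 rose (22.2%, also below the panel's share), and 1 passed as higher after median centring. The mast cell protease Cpa3 read 3.46 and 4.10 in control and 4.78, 7.14 and 3.63 in the combination and did not pass (log2 change 1.40, SE 0.74, adjusted p = 0.147), but did without combination replicate 3 (2.18, adjusted p = 0.0224). It exceeded the limit only in combination replicate 2. Of 4 dendritic cell genes, 3 rose and 0 fell, with median change 2.54. The dendritic cell growth factor receptor Flt3 did not pass, at 4.17 and 4.93 in control and 4.64, 6.11 and 5.76 in the combination (log2 change 0.95, SE 0.46, adjusted p = 0.121), but did without combination replicate 1 (1.38, adjusted p = 0.0206). All 3 regulatory T cell genes rose, with median change 1.57. After median centring 1 passed as higher, and 1 did with only the 5 samples in the fit. Il2ra and Ctla4 were already counted in the costimulation and checkpoint lists, so only Foxp3 is on this list alone. The regulatory T cell factor Foxp3 was at or below the limit in all 5 samples, at 2.58 and 2.53 in control and 3.59, 4.49 and 4.01 in the combination, so its call gives no fold (log2 change 1.48, SE 0.39, adjusted p = 0.0109). The part of these cell types in the other changes was not tested.

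Lysosomal genes rose almost as a group. Of 15 genes of the lysosome, 13 rose and 0 fell, with median change 1.61; 7 passed as higher after median centring and 4 with only the 5 samples in the fit. Their summed counts were 2.32% and 2.48% in control and 3.47%, 8.70% and 5.45% in the combination. Cathepsin Z (Ctsz), a protease, read 9.68 and 9.99 in control and 10.90, 13.04 and 11.89 in the combination and rose 4.30-fold (log2 change 2.10, SE 0.51, adjusted p = 0.00725; 1.40 centred). The glycan-degrading enzyme Hexa rose 3.97-fold (adjusted p = 0.00993). Of 10 genes of endocytosis and vesicle traffic, 7 rose and 0 fell, with median change 1.00, and none of the 7 passed after median centring. The ubiquitin ligases Itch and Cbl rose 2.30-fold and 2.42-fold (adjusted p = 0.00643 and 0.00745). The early endosome tether Eea1 rose 2.25-fold and the sorting protein Stam2 2.04-fold (adjusted p = 0.00906 and 0.00651). Their centred changes were 0.50, 0.57, 0.46 and 0.32. The call was lost for Ctsz, Itch and Stam2 without control replicate 1 (adjusted p from 0.0510 to 0.0628), for Hexa and Eea1 without one or the other control (adjusted p from 0.0541 to 0.0710), and for Cbl without control replicate 2 (adjusted p = 0.0584). Ctsz, Hexa, Cbl and Eea1 did not pass with only the 5 samples in the fit (adjusted p from 0.0574 to 0.0792).

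**Figure D3:**
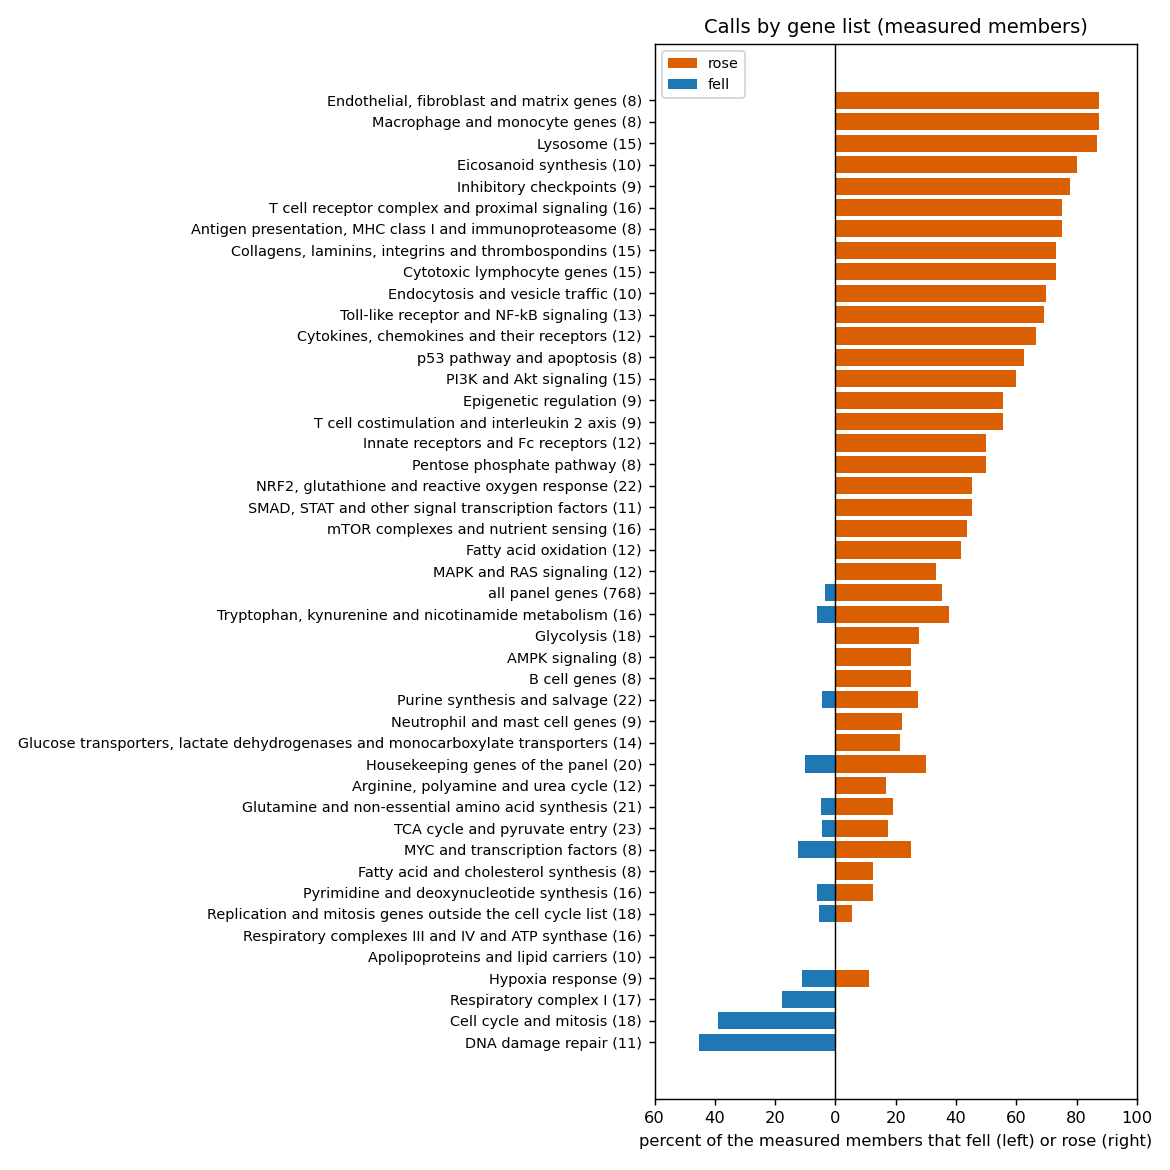
Percent of the measured members (number in parentheses) of each gene list with at least 8 members that rose (orange, right) or fell (blue, left) in the combination. All panel genes, at 35.4% and 3.39%, are the background; T cell, macrophage, lysosome and eicosanoid lists lie above it, and only the cell cycle, DNA repair and complex I lists hold falls without rises.

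In glucose metabolism single genes rose rather than the pathway. Of 18 glycolytic genes, 5 rose and 0 fell, with median change 0.51, close to the panel median. Hk3, the hexokinase of myeloid cells, read 4.46 and 4.69 in control and 7.81, 10.21 and 8.79 in the combination, a rise of at least 13.5-fold (log2 change 4.37, SE 0.63, adjusted p = 0.000946; 3.66 centred). Hk2, the inducible hexokinase, read 8.05 and 8.09 in control and 9.24, 10.08 and 9.45 in the combination and rose 2.87-fold (log2 change 1.52, SE 0.43, adjusted p = 0.0139), with a centred change of 0.81 that did not pass. Slc16a3, which exports lactate, read 5.67 and 5.68 in control and 6.91, 10.82 and 9.03 in the combination and rose 9.47-fold (log2 change 3.24, SE 0.78, adjusted p = 0.00723; 2.53 centred). Its treated samples spanned about 4 log2 units. Of 8 pentose phosphate genes, 4 rose and 0 fell, among them Pgd, which makes NADPH, at 2.23-fold (adjusted p = 0.00590; 0.45 centred, not passed). Hk3 and Slc16a3 were stable to leaving out any 1 sample. No call was made for Hk2 without combination replicate 2 or one or the other control (adjusted p from 0.0558 to 0.0802), and for Pgd without control replicate 2 (adjusted p = 0.0502). Shifts of the fold by over 1.5 times gave log2 changes of 4.25 for Slc16a3 without combination replicate 1, and of 3.73 for Hk3 and 2.29 for Slc16a3 without combination replicate 2. Slc16a3 and Pgd did not pass with only the 5 samples in the fit (adjusted p from 0.0591 to 0.0798).

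Tryptophan is broken down through kynurenine toward NAD. Of 16 genes of this route and of nicotinamide metabolism, 6 rose and 1 fell, with median change 0.66 and the share that rose near the panel's 35.4%. The 3 enzymes that act in sequence after kynurenine rose. Kmo, the first of them, exceeded the limit in 1 of 3 treated samples and in neither control, and rose at least 1.40-fold (adjusted p = 0.0153). Kynu read 4.91 and 4.74 in control and 6.76, 8.20 and 7.64 in the combination, a rise of at least 5.09-fold (log2 change 2.71, SE 0.49, adjusted p = 0.00207; 2.00 centred). Haao read 3.91 and 4.39 in control and 6.15, 7.17 and 6.17 in the combination and rose at least 2.48-fold (log2 change 2.35, SE 0.41, adjusted p = 0.00194; 1.64 centred). Ido1, the interferon-induced enzyme that starts the route, was at or below the limit in all 5 samples. In arginine metabolism 2 of 12 genes rose (16.7%, below the panel's 35.4%), among them Gatm, which starts creatine synthesis, at 3.25-fold (adjusted p = 0.0101). Arg1, the arginase of suppressive macrophages, read 12.18 and 12.47 in control and 12.35, 15.15 and 13.56 in the combination and did not pass (log2 change 1.36, SE 0.58, adjusted p = 0.0761). Without combination replicate 1 it passed, at 2.03 (adjusted p = 0.00380), and without replicate 2 its change was 0.63. Nos2, the inducible nitric oxide synthase, exceeded the limit in 1 treated sample and did not pass (log2 change 2.34, SE 0.98, adjusted p = 0.0722), but did without combination replicate 1 (3.30, adjusted p = 0.0101). Glutamine synthetase (Glul) rose 2.72-fold (adjusted p = 0.0331; 0.74 centred, not passed). Calls were not kept by Kmo without combination replicate 2 or control replicate 1 (adjusted p from 0.0642 to 0.140), by Glul without combination replicate 2 or 3 or one or the other control (adjusted p from 0.0640 to 0.196), and by Gatm without control replicate 1 (adjusted p = 0.0800). Gatm did not pass after median centring, at 0.99. Glul and Gatm did not pass with only the 5 samples in the fit (adjusted p from 0.0760 to 0.112).

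Of 12 fatty acid oxidation genes, 5 rose and 0 fell, with median change 0.65 and the share that rose near the panel's 35.4%. After median centring 1 passed as higher and 5 as lower. Cpt1a, which brings fatty acids into mitochondria, and Acaa2, which completes each mitochondrial cycle, rose 2.22-fold and 2.27-fold (adjusted p = 0.00285 and 0.00288), with centred changes of 0.44 and 0.47 that did not pass. Both were stable to leaving out any 1 sample. The list of complexes III and IV and ATP synthase also holds the mitochondrial regulators Ppargc1a and Tfam. Of its 16 genes, 0 rose and 0 fell in limma, with median change -0.14. Their changes ran from -0.66 to 0.62, and 9 were lower after median centring. None of 7 constitutive proteasome genes passed either, with median change -0.13. Respiratory complex I differed, as 3 of its 17 genes fell (17.65%, against 3.39% of the panel) and 0 rose. Its median change was -0.02, and 10 genes were lower after median centring. With only the 5 samples in the fit, or without combination replicate 2, 0 of the 17 fell.

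The PI3K, Akt and mTOR kinases carry growth factor, costimulation and nutrient signals. Of 15 PI3K and Akt genes, 9 rose (60%, against 35.4% of the panel) and 0 fell, with median change 0.89. Of 16 mTOR and nutrient sensing genes, 7 rose (43.8%, nearer the panel's share) and 0 fell, with median change 0.63. After median centring 1 gene of the first list passed as higher and 1 as lower. In the second list 1 passed as higher and 3 as lower. Mtor itself read 6.82 and 6.71 in control and 8.10, 8.68 and 8.12 in the combination, a 2.89-fold rise (log2 change 1.53, SE 0.28, adjusted p = 0.00207; 0.82 centred). Pik3cd, the catalytic subunit of leukocytes, read 4.64 and 4.79 in control and 6.06, 7.76 and 6.89 in the combination and rose at least 3.29-fold from below the limit (log2 change 2.19, SE 0.46, adjusted p = 0.00431; 1.48 centred). The broadly expressed subunits Pik3cb and Pik3r1 rose 2.28-fold and 1.85-fold, and the kinase Akt2 2.07-fold (adjusted p from 0.00450 to 0.00761). Their centred changes of 0.48, 0.18 and 0.34 did not pass. Pik3r1 was lowest in replicate 2 among the treated samples, at 11.02, 10.43 and 10.79 against 9.89 and 9.82 in control.

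Of 8 AMPK genes, 2 rose (25%, below the panel's 35.4%) and 0 fell. Of these, Cab39, a partner of the upstream kinase, rose 2.33-fold (adjusted p = 0.0166). Of 12 MAPK and RAS genes, 4 rose and 0 fell, a share near the background of 35.4%. Of 8 p53 and apoptosis genes, 5 rose (62.5%, against 35.4% of the panel) and 0 fell. After median centring 0 of the 8 passed, with a median centred change of 0.15. The tumor suppressor Trp53 read 8.49 and 8.35 in control and 9.34, 9.63 and 9.33 in the combination and rose 2.02-fold (log2 change 1.02, SE 0.28, adjusted p = 0.0129), and the survival gene Bcl2 read 7.15 and 7.12 in control and 8.30, 8.10 and 8.38 in the combination and rose 2.18-fold (log2 change 1.12, SE 0.24, adjusted p = 0.00425). The treated samples of both were tight and above the controls, yet the centred changes of 0.31 and 0.42 did not pass. The call was lost for Pik3cb without control replicate 1 (adjusted p = 0.0628), for Cab39 without combination replicate 2 or one or the other control (adjusted p from 0.0582 to 0.0847), and for Trp53 without one or the other control (adjusted p from 0.0628 to 0.0847). Cab39 did not pass after median centring, at 0.51. Pik3r1 did not pass with only the 5 samples in the fit (adjusted p = 0.0591).

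Of 8 genes of MYC and other transcription factors, 2 rose (25%) and 1 fell, against 35.4% and 3.39% of the panel. Of 11 SMAD, STAT and related factors 5 rose (45.5%) and 0 fell. Runx1, a factor of blood cell development, read 8.25 and 8.20 in control and 9.64, 10.23 and 9.76 in the combination, a 3.14-fold rise (log2 change 1.65, SE 0.23, adjusted p = 0.000856; 0.94 centred). Runx2, the related factor of bone, read 4.75 and 4.89 in control and 6.88, 7.48 and 6.77 in the combination, a rise of at least 3.63-fold (log2 change 2.22, SE 0.29, adjusted p = 0.000856; 1.51 centred). Stat3 rose 2.10-fold (adjusted p = 0.00761; 0.36 centred, not passed). Of 9 epigenetic regulators, 5 rose and 0 fell, with median change 0.88. The histone methyltransferase Kmt2a read 7.92 and 8.02 in control and 9.38, 9.96 and 9.48 in the combination. Nsd1, which methylates another residue of histone H3, read 7.35 and 7.40 in control and 8.87, 9.70 and 8.64 in the combination. Their rises were 3.11-fold and 3.24-fold (adjusted p = 0.00101 and 0.00185; 0.93 and 0.99 centred), and the acetyltransferase Kat6a rose 1.84-fold (adjusted p = 0.00725; 0.17 centred, not passed). Of 22 genes of the NRF2 and reactive oxygen response, 10 rose and 0 fell, against 35.4% of the panel, with median change 0.73. After centring 3 passed as higher and 7 as lower. The regulator Nfe2l2 rose 2.10-fold, mitochondrial superoxide dismutase (Sod2) 2.26-fold and heme oxygenase (Hmox1) 4.13-fold (adjusted p = 0.00761, 0.00493 and 0.0128), and of these Hmox1 passed after centring. Runx1, Runx2, Kmt2a and Nsd1 were stable to leaving out any 1 sample. No call was made for Stat3 without control replicate 1 (adjusted p = 0.0628), for Kat6a without control replicate 2 (adjusted p = 0.0598), and for Nfe2l2 and Hmox1 without one or the other control (adjusted p from 0.0511 to 0.0933). The fold moved by over 1.5 times, to log2 changes of 1.37 for Hmox1 without combination replicate 2. Nfe2l2, Hmox1 and Sod2 did not pass with only the 5 samples in the fit (adjusted p from 0.0662 to 0.0876).

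The extracellular matrix also differed. Of 15 collagen, laminin, integrin and thrombospondin genes, 11 rose and 0 fell, with median change 1.12; 3 passed as higher after median centring and 9 with only the 5 samples in the fit. The 3 chains of collagen VI, a matrix protein of fibroblasts, rose together. Col6a1 read 5.98 and 6.25 in control and 9.86, 11.04 and 9.30 in the combination, a 15.5-fold rise (log2 change 3.95, SE 0.45, adjusted p = 0.000301; 3.24 centred). Col6a3 read 8.07 and 8.0 in control and 10.09, 11.28 and 9.81 in the combination, a 5.12-fold rise (log2 change 2.36, SE 0.56, adjusted p = 0.00708; 1.65 centred). Col6a2 read 9.51 and 9.0 in control and 10.61, 12.33 and 10.77 in the combination and rose 3.96-fold (log2 change 1.98, SE 0.63, adjusted p = 0.0251; 1.28 centred, not passed). No treated sample of these chains overlapped the controls. Thbs2, a thrombospondin that limits vessel growth, rose 3.09-fold, and the collagen receptor Itga1 3.00-fold (adjusted p = 0.00796 and 0.0106). Endothelial and fibroblast markers were higher too, with 7 of 8 rising. Some of them, Col6a1 and Thbs1 included, were already counted in the matrix list. Among the 7, the receptors Flt1, of endothelium, and Pdgfrb, of pericytes and fibroblasts, went from below the limit in both controls to above it in all treated samples. Calls were not kept by Col6a2 without combination replicate 2 or one or the other control (adjusted p from 0.0774 to 0.144), by Thbs2, Flt1 and Pdgfrb without control replicate 2 (adjusted p from 0.0640 to 0.0926), and by Itga1 without one or the other control (adjusted p from 0.0628 to 0.0673). Shifts of the fold by over 1.5 times gave log2 changes of 3.08 for Flt1 without combination replicate 1, and of 1.64 for Flt1 without combination replicate 2. Thbs2, Itga1 and Pdgfrb did not pass after median centring, at 0.92, 0.88 and 1.29. Col6a2 and Flt1 did not pass with only the 5 samples in the fit (adjusted p from 0.0591 to 0.0845).

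Some genes of the cell cycle and of DNA repair fell. Of 18 cell cycle and mitosis genes, 0 rose and 7 fell, with median change -0.70, and of 11 repair genes 5 fell and 0 rose, with median change -0.60. The other members did not pass, and changes on the cell cycle list ran from -1.28 to 1.34. Ube2t, the ubiquitin-conjugating enzyme of the Fanconi anemia pathway, read 8.99 and 9.34 in control and 8.30, 7.21 and 8.15 in the combination, a 2.43-fold fall (log2 change -1.28, SE 0.27, adjusted p = 0.00450; -1.99 centred). Ube2c, which marks mitotic proteins for destruction, read 11.12 and 11.14 in control and 10.30, 9.26 and 10.22 in the combination and fell 2.30-fold (log2 change -1.20, SE 0.27, adjusted p = 0.00590; -1.91 centred). In both genes every treated sample lay below both controls, with replicate 2 lowest by about 1 log2 unit.

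Other repair genes that fell were the nuclease Exo1 and the helicase Brip1, 2.22-fold and 1.80-fold (adjusted p = 0.00762 and 0.0220). Among 22 purine genes 6 rose (27.3%) and 1 fell, against 35.4% and 3.39% of the panel. Among 16 genes of pyrimidine and deoxynucleotide synthesis 2 rose (12.5%) and 1 fell. Of these, thymidine kinase Tk1 fell 2.11-fold and Gmps, which makes GMP, 1.99-fold (adjusted p = 0.0128 and 0.0106). Mki67, the usual marker of proliferation, read 8.34 and 8.42 in control and 9.003, 8.45 and 8.64 in the combination and did not pass (log2 change 0.31, SE 0.47, adjusted p = 0.624; -0.40 centred). In the list of further replication and mitosis genes, 1 of 18 fell and 1 rose.

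Outside these lists, Nadk2, which makes NADP in mitochondria, read 8.50 and 8.50 in control and 7.72, 7.47 and 7.84 in the combination and fell 1.77-fold (log2 change -0.82, SE 0.20, adjusted p = 0.00723; -1.53 centred), with the treated samples close together. Folr1, the folate receptor and an epithelial gene, read 9.67 and 10.11 in control and 9.04, 7.27 and 8.90 in the combination and fell 2.80-fold (log2 change -1.48, SE 0.42, adjusted p = 0.0140). Car12, a carbonic anhydrase on the same list, read 11.21 and 11.52 in control and 10.67, 9.28 and 10.10 in the combination and fell 2.55-fold (log2 change -1.35, SE 0.33, adjusted p = 0.00767). Trf, also on the epithelial list, read 16.70 and 16.46 in control and 16.14, 15.50 and 16.35 in the combination and did not pass (log2 change -0.58, SE 0.26, adjusted p = 0.0947), though its centred change of -1.29 did. The fourth gene of that list, the growth factor receptor Egfr, rose, at 7.75 and 8.02 in control and 8.76, 9.30 and 8.37 in the combination (1.90-fold; log2 change 0.92, SE 0.27, adjusted p = 0.0187). No call was made for Egfr without combination replicate 2 or one or the other control (adjusted p from 0.0586 to 0.139). Egfr did not pass after median centring, at 0.21. Egfr did not pass with only the 5 samples in the fit (adjusted p = 0.0930). The summed counts of the 4 epithelial genes made up 17.6% and 13.4% in control and 10.4%, 4.67% and 9.92% in the combination. Trf alone took 17.1% and 12.8% in control and 10.05% and 9.70% in combination replicates 1 and 3. The sum therefore mostly follows Trf, which did not pass, and does not show a joint fall of the 4 genes. The share of the cell cycle genes was 1.79% and 1.65% in control and 1.13%, 0.485% and 0.924% in the combination. Both summed shares, epithelial and cell cycle, were lowest in replicate 2. The part of tumor cell content in these falls was not tested. Among 20 housekeeping genes, 6 rose (30%) and 2 fell (10%), against 35.4% and 3.39% of the panel. The 2 that fell were Usp39 and the mitochondrial ribosomal gene Mrps5 (1.70-fold and 2.13-fold, adjusted p = 0.0123 and 0.00812).

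The falls depended more on the fit than the rises. None of the 26 passed with only the 5 samples in the fit, where the smallest adjusted p among Ube2t, Ube2c and Nadk2 was 0.0546. Both centrings lowered every change, by 0.71 and 0.26, so they could only deepen a fall and are no check on it. All 26 passed as lower in both centred scalings, and 4 (0.521%), Ube2t, Ube2c and Nadk2 among them, stayed called with any 1 sample left out. The test was not passed by Exo1 and Mrps5 without control replicate 1 (adjusted p from 0.0628 to 0.0669), by Tk1, Gmps and Usp39 without one or the other control (adjusted p from 0.0502 to 0.0929), by Brip1 without combination replicate 2 or one or the other control (adjusted p from 0.0744 to 0.133), and by Folr1 and Car12 without control replicate 2 (adjusted p from 0.0694 to 0.110).

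The median SD over genes was 0.364 in the combination (n = 3) and 0.155 in control (n = 2). Over the 272 rising genes, the median difference from the control mean was 1.00 in combination replicate 1, 1.92 in replicate 2 and 1.27 in replicate 3. For the 26 falling genes these values were -0.58, -1.44 and -0.68. Replicate 2 was the highest treated sample for 246 of the 272 and the lowest for 24 of the 26. Nt5e and Irf1 were among the rising genes in which it was not the highest. These counts describe genes that were called with the same samples. Over all 768 genes replicate 2 was the highest treated sample for 442 and the lowest for 194.

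**Figure D4:**
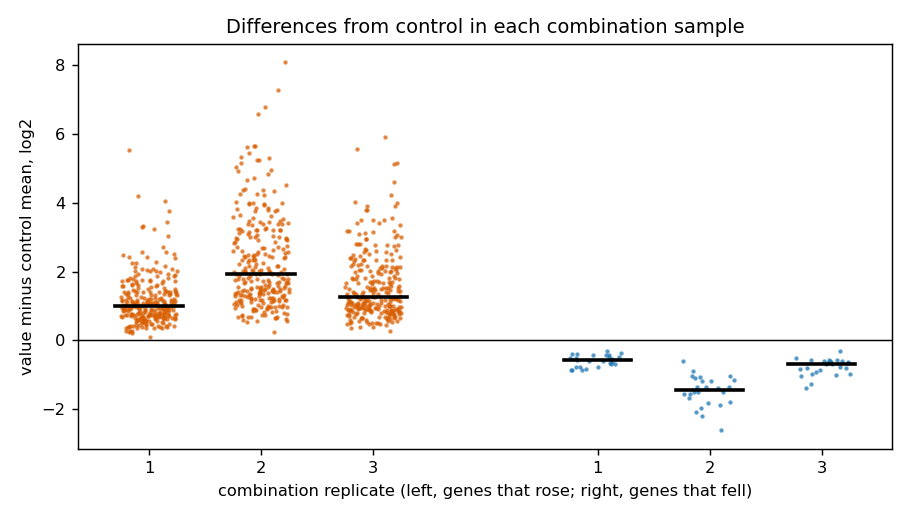
Difference from the control mean (y axis, log2) of each gene that rose (orange, 272 genes) or fell (blue, 26 genes) in combination replicates 1, 2 and 3 (x axis), with 1 point per gene and the median as a black bar. The medians of replicate 2, 1.92 and -1.44, lie farthest from 0.

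The single-agent arms allow the question which genes differed between the combination and either agent alone. All comparisons with control share the same 2 control samples. Neither DC1 alone nor the antibody alone changed any gene against control at an adjusted p under 0.05 in limma (0 of 768, 0.0%). At an unadjusted p under 0.05, 109 genes (14.2%) did so with DC1 and 11 (1.43%) with the antibody. Between the combination and the antibody alone, 283 genes (36.8%) differed, 265 (34.5%) higher and 18 (2.34%) lower. Between the combination and DC1 alone, 14 genes (1.82%) differed, 13 (1.69%) higher and 1 (0.13%) lower, against 205 (26.7%) at an unadjusted p under 0.05. The higher ones were Pdcd1lg2, Cd28, Lat, Icos, Col6a1, Cd6, Pdcd1, Mycl, Kynu, Ogdhl, Pparg, Xdh and Stat5a, and the lower one was Ube2t.

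Col6a1 had the smallest adjusted p of the 14. It read 5.98 and 6.25 in control, 7.27 and 7.08 with DC1 alone, 6.55 and 6.60 with the antibody alone and 9.86, 11.04 and 9.30 in the combination, a difference from DC1 alone of 2.89 (SE 0.45, adjusted p = 0.0172). For Kynu the readings were 4.91 and 4.74 in control, 5.96 and 4.64 with DC1 alone, 4.48 and 5.29 with the antibody alone and 6.76, 8.20 and 7.64 in the combination, and the difference from DC1 alone was 2.23 (SE 0.49, adjusted p = 0.0472). Xdh, the xanthine oxidoreductase that makes uric acid, read 11.22 and 11.26 in control, 11.34 and 11.02 with DC1 alone, 11.22 and 11.23 with the antibody alone and 11.90, 12.55 and 12.18 in the combination, a difference of 1.03 (SE 0.24, adjusted p = 0.0472) from DC1 alone. In these 3 genes no single-agent sample reached the lowest combination sample. Cd274 was different, with 8.13 and 8.15 with DC1 alone, 5.92 and 6.52 with the antibody alone, so that DC1 alone lay between control and combination and the difference from DC1 alone did not pass, at 1.36 (SE 0.55, adjusted p = 0.130). Ube2t read 8.99 and 9.34 in control, 9.02 and 9.23 with DC1 alone, 9.10 and 8.95 with the antibody alone and 8.30, 7.21 and 8.15 in the combination, a difference of -1.24 (SE 0.27, adjusted p = 0.0472). The 14 calls were sensitive to the fit. They numbered 162 without combination replicate 1, 1 without replicate 2 or replicate 3, 9 and 0 without DC1 replicate 1 and replicate 2, and 0 with only the 5 samples of these groups.

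**Figure D5:**
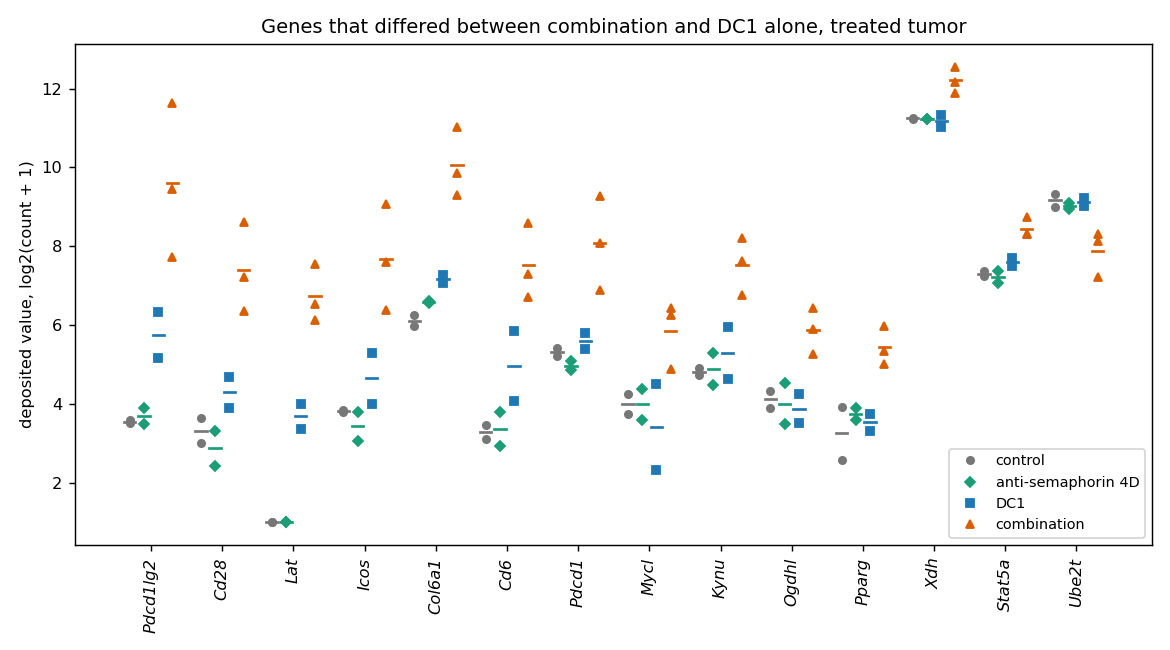
Deposited values, log2(count + 1), on the y axis for the 14 genes (x axis) that differed between combination and DC1 alone in treated tumors, by arm, with 1 point per sample (2 per arm, 3 in the combination) and the mean as a bar. For 13 genes the combination lies highest, and for Ube2t it lies lowest.

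The tumors labelled untreated of the same arms gave a second reading of the combination. There, 129 genes (16.8%) differed between combination and control, 121 (15.8%) higher and 8 (1.04%) lower. The test of whether the change differed between the 2 kinds of tumor called no gene (0 of 768, 0.0%), with 81 genes (10.5%) at an unadjusted p under 0.05, so larger changes in the treated tumor are not shown to be particular to it. Irf1 read 9.55 and 9.56 in control and 10.49, 11.57 and 11.68 in the combination in untreated tumors, and the difference between the changes was -0.23 (SE 0.51, adjusted p = 0.907). Col6a1 read 5.39 and 6.03 in control and 7.05, 6.73 and 7.56 in the combination there, with a difference of 2.55 (SE 0.64, adjusted p = 0.392). Haao read 2.32 and 1.84 in control and 5.75, 6.85 and 6.15 in the combination, a change of 4.17 against 2.35 in the treated tumor, with a difference of -1.83 (SE 0.58, adjusted p = 0.448) and controls below the limit in both. Nadk2 read 8.58 and 8.68 in control and 7.93, 7.62 and 7.80 in the combination, with a difference of 0.03 (SE 0.28, adjusted p = 0.983). Without treated-tumor combination replicate 1 the same test called 19 genes.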

How the data were processed

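Expression was measured with a NanoString nCounter panel of 768 genes, 6 positive and 8 negative control probes. The authors deposited log2 values, which here proved to be log2(count + 1). In 6 columns of the series 2 to the power of the value, less 1, was a whole number throughout. In the other 12 it was a whole number times 1 factor per sample (0.736 to 2.58), with 97.0% to 100% of values up to 500 counts whole within 0.05. Whether the whole-number columns are raw or rounded scaled counts was not settled, and the scaling method is not stated in the labels. limma is named per the submitters' processing notes, with no role or version. Counts per sample were recovered by dividing by the factor, and the negative-control limit (mean plus 2 SD of the negative probes) was brought to the scale of each sample. Panel counts of 203509 to 989309 per sample set the depth, and genes at the limit have only a bound: a fold against a group wholly at or below it is given as at least the fold over the limit.

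Samples were grouped by title, with all 18 in 1 limma fit (version 3.58.1, R 4.3.3; lmFit and eBayes, 1 mean for each of 8 groups), Benjamini-Hochberg adjustment over 768 genes and a threshold of 0.05. Other steps used Python 3.11.15, numpy 2.4.6, pandas 2.3.3 and matplotlib 3.10.9. The scripts were tested on simulated data. Alternatives were median and housekeeping centring (20 genes), a pseudocount of 20, a filter on the limit, fitting only the groups compared, trend and robust settings, the replicate number or the kind of column as a block, the scaled columns alone, and leaving out each sample of the groups compared in turn (samples of the single-agent arms and of the untreated tumors as a choice made after seeing the data).

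The members and the gene lists were chosen with earlier results of these data known, and 9 lists (eicosanoids, collagens and related genes, proteasome, innate receptors, further replication genes and others) were added after the gene names of the panel were seen. From each list, up to 4 called genes a direction by smallest p and the uncalled member with the highest mean level could be named, with the 10 largest changes in each direction over the panel that were called in all 3 scalings, and Cd8a, Cd3e, Cd4, Gzmb, Ifng, Arg1, Nos2, Cd274, Pdcd1, Mki67 and Trf. Alox5, Birc3, Cd3g, Cmklr1, Col6a2, Col6a3, Ctsz, Fcrlb, Hexa, Hmox1, Ido1, Itga1, Itgb2, Lck, Ltb, Mycl, Nt5e, Pdgfrb, Pik3cb, Ppargc1a, Ptger4, Ptges, Ptgs2, Runx2, Stat3, Tfam, Thbs2, Tigit, Traf1 and Usp39 were named outside this rule after their values were seen. Sequences were matched by symbol to RefSeq promoters (GRCm38.p6) for 604 of 768 genes.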

Additional observations from a re-analysis of the deposited data

How the results depend on the processing

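With 2 controls and 3 combination samples, calls rested on the spread pooled over all 18 samples, on both controls and on combination replicate 2. The 298 genes that differed between combination and control numbered 155 with only the groups compared, 0 with the scaled columns only (1 control left, assumed to vary like the other groups; chosen after seeing the data), and 132 to 334 with 1 sample left out: 195 without combination replicate 2, 132 without control replicate 1 and 137 without control replicate 2. The median change of 0.54 was -0.17 median centred and 0.27 housekeeping centred. The split of 272 higher and 26 lower became 104 and 173, and 193 and 72, in these scalings. Of the 272 genes that rose, 26 had a negative change after median centring, and 0 of them were called lower there. Among the genes named, signs turned with median centring for Cd3d (-0.054), Ido1 (-0.15), Ifng (-0.035) and Mki67 (-0.40), none of which had passed. The cause of these shifts was not tested.

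Against DC1 alone, 14 genes differed. The count was 37 with the filter on the limit, 37 with trend and robust on, 45 with a pseudocount of 20, 7 median centred, 1 housekeeping centred, 0 with column kind as a block, 0 with only the groups compared, 0 with the scaled columns only and 0 to 162 with 1 sample of either group left out. Against the antibody alone, 283 genes became 121 with only the groups compared, 0 with the scaled columns only and 106 to 323 with 1 sample of either group left out: 106 and 166 without antibody replicate 1 and replicate 2, and 183 without combination replicate 2. The difference between treated and untreated tumors gave 0 genes, 1 with only the groups compared and 0 to 19 with 1 sample of the 4 groups left out, the 19 without treated-tumor combination replicate 1. The replicate number as a block gave 249 genes against control, 241 against the antibody and 1 against DC1. The numbers did not pair combination with control samples: deviations of same-numbered samples from their group means had correlations of 0.01 over the panel. Between treated and untreated tumors of the same arm and number, which may come from 1 mouse, they were -0.07 in control and 0.36, -0.06 and 0.02 in the combination (0.52 and 0.17 in the DC1 and antibody arms). Those numbers were not used as pairs, but 2 or 3 samples per arm cannot settle whether tumors share a mouse. If they do, the fit over all 18 samples, and its test between the 2 kinds of tumor, treats related tumors as independent. Of the genes named, pseudocount 20 and the trend and robust setting changed no call. Precision is limited by the 2 controls and, for genes near the negative-control limit, by the signal over background.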
